A study of Mus musculus with 16 samples.

Results

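The genes described here are 10 genes used as markers of macrophages, together with the genes of complement C1q chains that tissue macrophages make: Emr1 (now Adgre1), Cd68, Cd14, Cd163, Mrc1, Csf1r, Itgam, C1qa, C1qb and Grn. They were found by the gene name that the array files give to each probe, which yielded 15 probes out of 41174 on the array, and 11 probes of 9 genes were measured above background in both dyes. The samples were the gastrocnemius, a muscle of the calf, of 16 male C57BL/6N mice, 3 months old at the start. All mice were fed a corn-oil-based high-fat diet (cHF, lipids about 35% of its weight) with the PPARγ agonist rosiglitazone at 10 mg per kg diet for 8 weeks. In 8 of them (cHF+ROSI) nothing was added, and in the other 8 (cHF+F+ROSI) a concentrate of n-3 LC-PUFA, the long-chain fatty acids DHA and EPA, replaced 15% of the dietary lipids. The mice were fasted for 10 h and then re-fed Chow overnight before they were killed. The comparison asks whether n-3 LC-PUFA, on top of rosiglitazone, goes with a different level of macrophage RNA in the muscle, and no group without rosiglitazone was analysed here.

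Each mouse was measured on 1 two-color array, with its own RNA labelled with Cy5 and a pooled reference labelled with Cy3, so that a value is a log2 ratio to the same pool. The arrays lay on 4 slides of 4 arrays, and on every slide cHF+ROSI mice took positions 1 and 3 and cHF+F+ROSI mice positions 2 and 4, so that position and diet cannot be told apart. The median Cy5 signal of an array lay between 153 and 186 on 15 arrays and was 121.5 on that of cHF+ROSI replicate 1. A bulk muscle sample holds few macrophages among many fibres, and fewer cells and less RNA per cell cannot be told apart in it. The mice were housed in pairs, and the labels number them without saying which shared a cage.

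Macrophages of muscle lie between the fibres and around vessels, clear dead cells and debris, and help fibres to be repaired after damage. They depend on the receptor of colony stimulating factor 1, carry scavenger and pattern receptors on their surface, and are a main source of C1q, the molecule that starts the classical pathway of complement. C1q is built from A, B and C chains, of which C1qa and C1qb encode the first pair.

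Promoters of the members were taken from the RefSeq table (GRCm38.p6, 250 bases before to 50 bases after the start of transcription). They were read for 6 of the 10 genes. C1qa and Emr1 had no entry, and the promoters of Cd14 and Csf1r were left out of the search. Those of C1qb and of the surface or lysosomal proteins Mrc1, Cd68 and Cd163, which show promoters with and without the letters searched, are printed with the letters GAGGAA and GGAAGT in capitals, also where they lie on the other strand as TTCCTC and ACTTCC. Both are parts of the site that PU.1, a main regulator of macrophages, binds, they share the letters GGAA, and so a longer site can hold both.
C1qb promoter (GRCm38.p6, chr4:136886151-136886450, minus strand): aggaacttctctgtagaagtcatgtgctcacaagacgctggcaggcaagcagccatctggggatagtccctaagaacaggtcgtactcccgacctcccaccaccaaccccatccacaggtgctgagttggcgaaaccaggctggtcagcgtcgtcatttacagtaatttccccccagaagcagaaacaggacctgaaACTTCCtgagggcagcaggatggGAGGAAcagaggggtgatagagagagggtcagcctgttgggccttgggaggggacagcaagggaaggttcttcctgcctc
Mrc1 promoter (GRCm38.p6, chr2:14229164-14229463, plus strand): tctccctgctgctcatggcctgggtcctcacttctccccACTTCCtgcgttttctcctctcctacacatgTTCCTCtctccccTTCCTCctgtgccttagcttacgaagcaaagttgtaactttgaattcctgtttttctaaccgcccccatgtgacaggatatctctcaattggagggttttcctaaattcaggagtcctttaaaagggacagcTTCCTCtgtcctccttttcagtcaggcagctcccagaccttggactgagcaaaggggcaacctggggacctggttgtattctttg
Cd68 promoter (GRCm38.p6, chr11:69666121-69666420, minus strand): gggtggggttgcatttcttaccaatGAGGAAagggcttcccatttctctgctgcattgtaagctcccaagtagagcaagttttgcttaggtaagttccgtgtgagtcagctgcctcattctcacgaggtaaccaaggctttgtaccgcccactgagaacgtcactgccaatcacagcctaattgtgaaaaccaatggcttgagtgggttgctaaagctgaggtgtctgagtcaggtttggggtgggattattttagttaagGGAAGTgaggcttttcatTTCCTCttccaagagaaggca
Cd163 promoter (GRCm38.p6, chr6:124304401-124304700, plus strand): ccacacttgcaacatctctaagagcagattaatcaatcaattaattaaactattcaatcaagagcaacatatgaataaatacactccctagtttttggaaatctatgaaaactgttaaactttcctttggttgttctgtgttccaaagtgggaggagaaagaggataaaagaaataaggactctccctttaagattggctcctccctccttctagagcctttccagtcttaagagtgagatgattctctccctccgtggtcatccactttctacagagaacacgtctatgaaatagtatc
Of the 6 promoters, 5 held at least 1 of these letter runs, and 43.4% of all 32851 promoters of this length in the table did so. GAGGAA alone was in 28.3% and GGAAGT alone in 23.8% of all promoters. The C1qb promoter held 1 of each, which do not overlap, that of Mrc1 held 3 and 1, that of Cd68 held 2 and 1, and that of Cd163 none. A match is a run of letters and no measured binding.

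None of the 11 measured probes differed between the diets after adjustment over all probes. In limma, 1 of 11 member probes had an unadjusted p no higher than 0.05, a share of 9.09%, beside 10.4% of all 19398 probes (5.37% higher and 4.99% lower in the cHF+F+ROSI mice). With an adjusted p under 0.05, 0 member probes passed, beside 0.0876% of all probes (17 probes). The median log2 fold change over the member probes was -0.04, and over all probes 0.00. Of the 11 probes, 4 had a higher mean and 7 a lower mean in the cHF+F+ROSI mice, and the groups of every one overlapped.

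**Figure D1:**
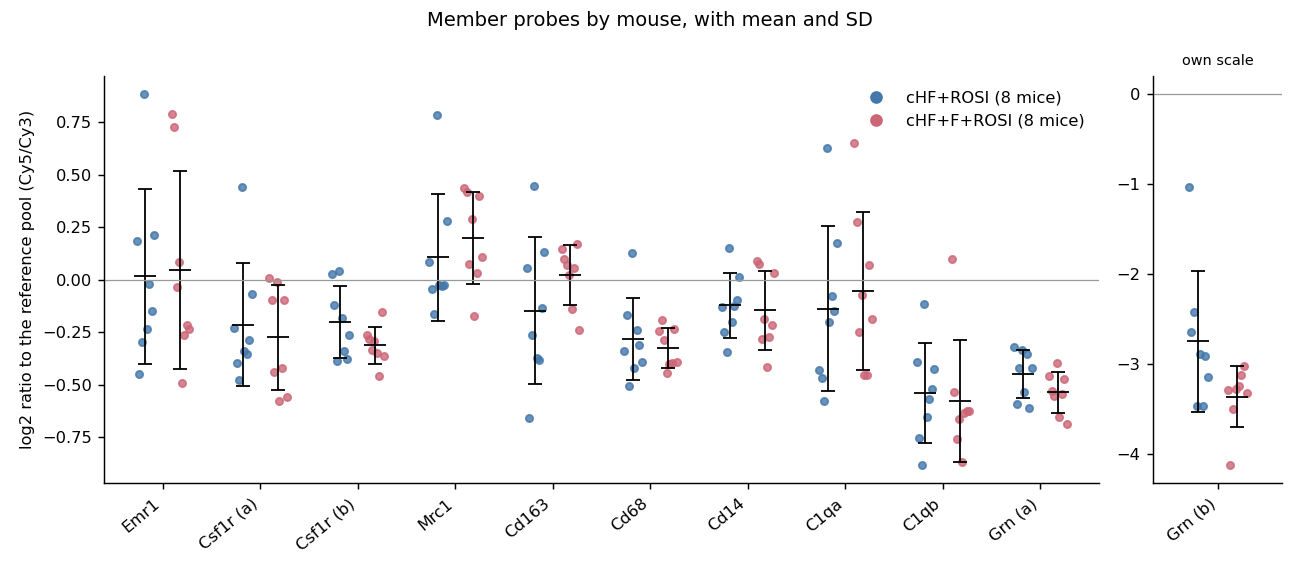
Log2 ratio of Cy5 to the Cy3 reference pool (y axis) for the 11 measured member probes (x axis), with 1 point per mouse, 8 cHF+ROSI and 8 cHF+F+ROSI mice, and the mean with SD as bars. Csf1r (a) and (b) and Grn (a) and (b) are different probes of the same gene, and Grn (b) has an axis of its own. The groups overlap in every probe, and 1 or more high mice stand above the others in Emr1, Mrc1, Csf1r (a), C1qa and C1qb.

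Emr1 encodes F4/80, the adhesion receptor that most defines mouse macrophages. Its probe on chromosome 17 from 57168755 to 57168814 (mm8, the build of all array positions here) had a Cy5 signal between 552.5 and 2180. In the cHF+ROSI mice the log2 ratio had a lowest value of -0.45, a median of -0.08 and a highest value of 0.88. In the cHF+F+ROSI mice the lowest was -0.49, the median -0.12 and the highest 0.79. The means were 0.02 ± 0.42 (SD, n = 8) and 0.05 ± 0.47 (SD, n = 8), and the log2 fold change was 0.03 (standard error, SE, 0.20, limma adjusted p = 0.977). The spread between mice was much larger than this difference, and the 95% interval ran from -0.39 to 0.45. Another Emr1 probe was not well above background on any array in either dye and gave no measurement.

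Csf1r, the receptor of colony stimulating factor 1 on which macrophages depend, was measured by 2 probes on chromosome 18. The brighter one, called (a) here, ranged from -0.48 over a median of -0.31 to 0.44 in the cHF+ROSI mice and from -0.58 over a median of -0.26 to 0.01 in the cHF+F+ROSI mice. In cHF+ROSI only replicate 4 was above 0, and it alone of all 16 mice lay above 0.01, while the groups overlapped below that. Its log2 fold change was -0.06 (SE 0.12, limma adjusted p = 0.897). The dimmer probe (b), with a Cy5 signal of at most 349, ranged from -0.39 to 0.04 and from -0.46 to -0.15, with a log2 fold change of -0.11 (SE 0.07, limma adjusted p = 0.583). Another Csf1r probe was well above background on 1 of 16 arrays in Cy5 and on none in Cy3, and was not used.

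Itgam encodes CD11b, the integrin chain of complement receptor 3. Its 2 probes did not pass the background filter. One was not well above background on any array, and the other was so on 12 of 16 arrays in Cy5 and on none in Cy3, so that Itgam is missing from the measured set. The latter probe failed only in Cy3, and its ratio, which rests on a weak reference signal, differed by 0.05 (SE 0.07) between the diets. Its partner chain Itgb2 was measured, with a log2 fold change of 0.03 (SE 0.08, limma adjusted p = 0.928).

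Mrc1 encodes the mannose receptor CD206 and Cd163 the receptor of haptoglobin-hemoglobin complexes, both typical of resident, alternatively activated macrophages. Mrc1 (chromosome 2 from 14249431 to 14249491) ranged from -0.16 over a median of -0.03 to 0.78 in the cHF+ROSI mice and from -0.17 over a median of 0.20 to 0.44 in the cHF+F+ROSI mice. The log2 fold change was 0.09 (SE 0.12, limma adjusted p = 0.822). Replicate 4 was the highest cHF+ROSI mouse, at 0.78, with the next at 0.28. Cd163 (chromosome 6 from 124296085 to 124296144) ranged from -0.66 over a median of -0.20 to 0.45 in the cHF+ROSI mice and from -0.24 over a median of 0.06 to 0.17 in the cHF+F+ROSI mice. Of the cHF+F+ROSI mice, 7 of 8 lay above the mean of the cHF+ROSI mice, with a log2 fold change of 0.17 (SE 0.12, limma adjusted p = 0.646), and p was 0.219 by exact two-sided permutation. Without cHF+ROSI replicate 4 the value of Cd163 was 0.26, with an unadjusted p of 0.0231 in limma, so that this mouse decided on which side of 0.05 it fell.

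Cd68, a lysosomal membrane protein of phagocytes, and Cd14, the co-receptor for bacterial lipopolysaccharide, were dim, with median Cy5 signals of 220 and 301. Cd68 (chromosome 11 from 69481007 to 69481066) ranged from -0.50 over a median of -0.32 to 0.12 in the cHF+ROSI mice and from -0.44 over a median of -0.34 to -0.19 in the cHF+F+ROSI mice. Cd14, on chromosome 18, ranged from -0.34 over a median of -0.13 to 0.15 and from -0.41 over a median of -0.20 to 0.09. The log2 fold changes were -0.04 for Cd68 (SE 0.07) and -0.02 for Cd14 (SE 0.08), both smaller than the spread between mice.

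The C1q genes lie side by side on chromosome 4, C1qa under a probe from 136168570 to 136168629 and C1qb under a probe from 136152739 to 136152798. In the cHF+ROSI mice the ratio of C1qa had a lowest value of -0.58, a median of -0.17 and a highest value of 0.63. In the cHF+F+ROSI mice it had -0.45, -0.13 and 0.65. The groups thus covered the same range, and the log2 fold change was 0.08 (SE 0.17, limma adjusted p = 0.896, exact two-sided permutation test p = 0.661). C1qb had a lowest value of -0.88, a median of -0.54 and a highest value of -0.12 in the cHF+ROSI mice. The cHF+F+ROSI mice had -0.87, -0.63 and 0.10, and 6 of the 8 lay below the cHF+ROSI mean of -0.54. The log2 fold change of C1qb was -0.04 (SE 0.12, limma adjusted p = 0.944, exact two-sided permutation test p = 0.788). C1qc, the third chain and no member, had -0.05 (SE 0.16).

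Grn encodes progranulin, a growth factor and lysosomal protein that macrophages and other cells secrete. Its 2 probes gave different pictures. Probe (a), on chromosome 11 from 102252468 to 102252527, had a Cy5 signal between 1068 and 3221. It ranged from -0.61 over a median of -0.42 to -0.32 in the cHF+ROSI mice and from -0.68 over a median of -0.54 to -0.40 in the cHF+F+ROSI mice, with a log2 fold change of -0.09 (SE 0.06, limma adjusted p = 0.601). Probe (b), on chromosome 11 from 102249367 to 102249426, was far brighter, with a Cy5 signal between 46820 and 155960 (median 96426) and a median Cy3 signal of 115134. After loess its log2 ratio ranged from -3.46 over a median of -2.90 to -1.03 in the cHF+ROSI mice. In the cHF+F+ROSI mice it ranged from -4.12 over a median of -3.28 to -3.01. Every mouse thus lay below the pool, to which these mice contributed, so these ratios are not read here as a level relative to it. All 8 cHF+F+ROSI mice lay below the cHF+ROSI mean, but the groups overlapped. The log2 fold change was -0.62 (SE 0.27, limma adjusted p = 0.437), with an unadjusted p of 0.0344 and an exact two-sided permutation p of 0.035. Its highest value, -1.03, came from the dim array of cHF+ROSI replicate 1, and without that array the log2 fold change was -0.37 (limma unadjusted p = 0.0423). Leaving out cHF+ROSI replicate 2 or 3 or cHF+F+ROSI replicate 2 or 3 took the unadjusted limma p above 0.05, with log2 fold changes of -0.60, -0.57, -0.51 and -0.60. So did scale normalization, with -0.35, and array quality weights, with -0.34. Across the mice, the 2 Grn probes hardly varied together (r = 0.12), so that the difference of probe (b) cannot be given as one of the Grn gene.

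**Figure D2:**
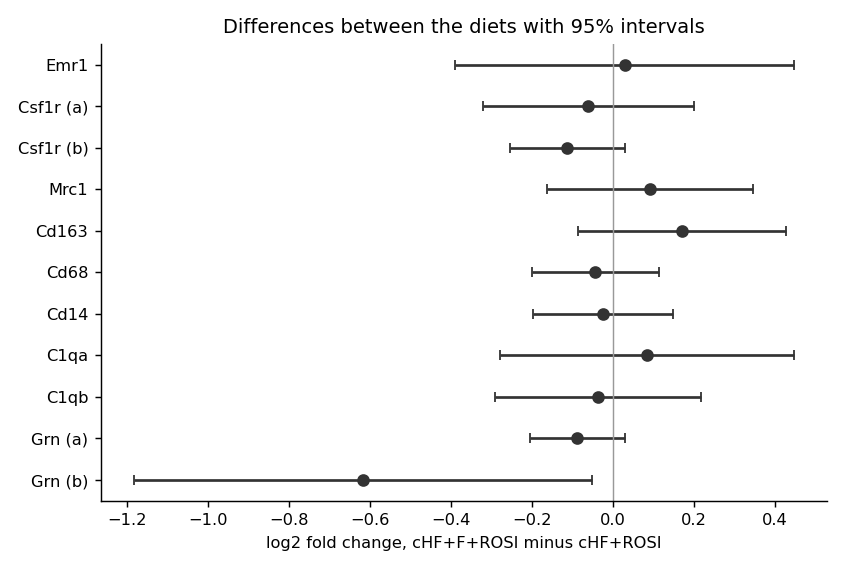
Log2 fold change (cHF+F+ROSI minus cHF+ROSI, x axis) of the 11 measured member probes (y axis), with 95% intervals from limma as bars. The intervals of 10 probes include 0, and that of Grn (b) runs from -1.18 to -0.05.

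Several members varied more from mouse to mouse than most genes. Within groups, the SD of the log2 ratio had a median of 0.26 over the 11 member probes, beside 0.13 over all probes. The SD of Emr1 was 0.44, higher than in 97.6% of all probes, and that of C1qa was 0.38, higher than in 96.4%. For Csf1r (a), Cd163, Mrc1 and C1qb it lay between 0.26 and 0.27. Grn (b) had the largest, 0.60 (98.9% of all probes lower). Cd14, Cd68 and Csf1r (b) lay nearer to the middle, above 71.7%, 62.4% and 51.6% of all probes, and Grn (a) had the smallest, 0.11, above 25.8%.

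The members rose and fell together across mice. For this, each group's mean was taken off, so that the diet played no part, and the 11 probes were compared in 55 pairs over the 16 mice, 53 of them of different genes. The permutation test shuffled mice within groups. Among the pairs of different genes the median Pearson r was 0.61, and 45 of 53 were above 0. After adjustment over all 55 pairs, 31 of the 53 passed 0.05 by Pearson's r, 24 by Spearman's rho and 22 by both. In all pairs of the 19296 probes measured on each array, the median r was 0.00, and 7.76% reached 0.5, while 33 of the 53 member pairs did.

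The closest pair was Mrc1 and Csf1r (a), with r = 0.96 and rho = 0.86 (adjusted permutation p = 0.000275 and 0.00055, with an unadjusted p of 1e-05 for r, the smallest that 100000 draws can give). C1qa went with Mrc1 (r = 0.88, rho = 0.86), with Emr1 (r = 0.87, rho = 0.83), with Csf1r (a) (r = 0.86, rho = 0.84), with Cd14 (r = 0.85, rho = 0.85) and with C1qb (r = 0.85, rho = 0.78), and each of these pairs had an adjusted permutation p of at most 0.00055 for r and 0.00316 for rho. Emr1 and Cd14 had r = 0.83, and Emr1 and C1qb r = 0.84. The surface receptors of macrophages and the secreted C1q chains thus had high values in the same mice.

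The pairs of Cd68 were looser, between 0.21 with Grn (a) and 0.73 with Mrc1 when Grn (b) is set aside, and 0 of them passed the adjustment by rho. Pairs of Csf1r (b), the dim probe, had a median r of 0.44, and the 2 Csf1r probes were related with r = 0.61 and rho = 0.53 (adjusted permutation p = 0.0239 and 0.0569). Pairs of Grn (a) also had a median r of 0.44. Grn (b) stood apart, with r between -0.51 with C1qa and 0.27 with Csf1r (b) and a median of -0.31, and without it the median r of the other 44 pairs was 0.64.

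**Figure D3:**
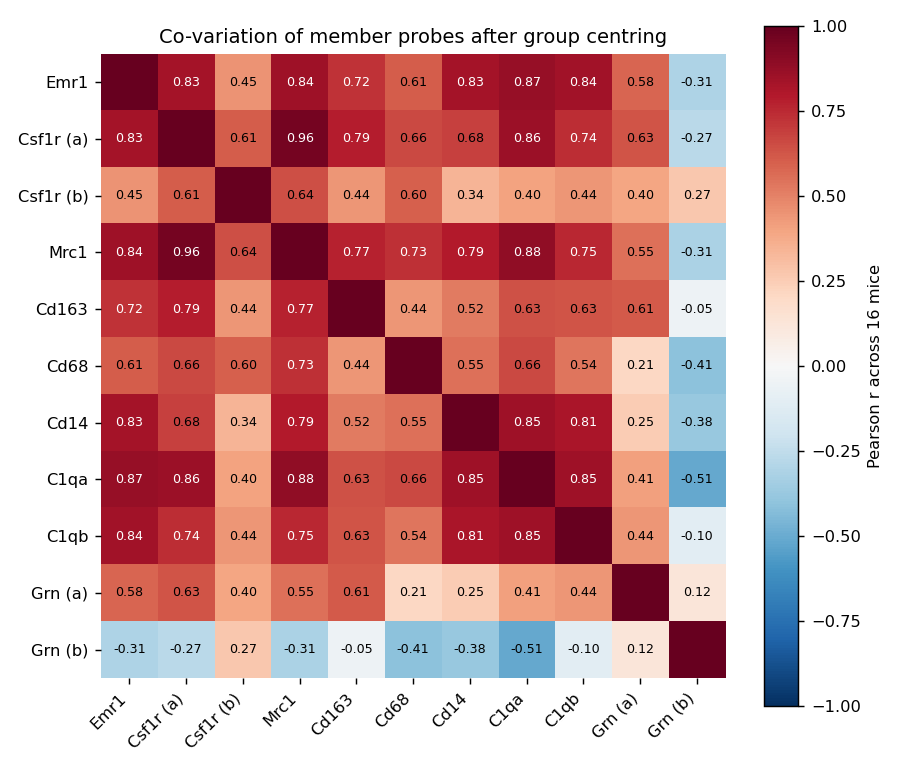
Pearson r across 16 mice, after each group's mean was taken off, for every pair of the 11 measured member probes (both axes), with color from -1 (blue) to 1 (red). Emr1, Csf1r (a), Mrc1, Cd14, C1qa and C1qb form a red field between 0.68 and 0.96, and the row of Grn (b) runs from -0.51 to 0.27.

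The same mice were high in several of these genes. Emr1 was highest in cHF+ROSI replicate 4 (0.88), in cHF+F+ROSI replicate 1 (0.79) and in cHF+F+ROSI replicate 2 (0.73), followed by cHF+ROSI replicate 8 (0.21). C1qa was 0.63, 0.65, 0.28 and 0.17 in the same mice, and at most 0.07 in any other. Mrc1 was 0.78, 0.44, 0.42 and 0.28 in them, 0.40 in cHF+F+ROSI replicate 7 and 0.29 in cHF+F+ROSI replicate 4. The mice lowest in Emr1 were cHF+F+ROSI replicate 5 (-0.49) and cHF+ROSI replicate 2 (-0.45), where C1qa was -0.45 and -0.46. The high mice came from both diets and from slides 1, 2 and 4.

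The strength of the relation depended on these mice in part. With the 2 mice farthest from the median of the first gene left out of each pair, the median r of the 53 pairs was 0.37, and 46 of the 53 were above 0. An r of at least 0.5 was then reached by 18 of the 53, beside 33 with all mice. Mrc1 with Csf1r (a) then still had r = 0.91, C1qa with Mrc1 0.82, Cd14 with C1qb 0.77, C1qa with Emr1 0.70 and C1qa with C1qb 0.63, while Cd68 with Emr1 fell to 0.27 and rests on those mice. Without the 3 mice highest in Emr1 the median was 0.36, and without cHF+ROSI replicate 4 alone 0.42. With slide means also removed the median r was 0.68. Within the cHF+ROSI mice alone it was 0.67, and within the cHF+F+ROSI mice alone 0.56, a difference that was not tested.

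**Figure D4:**
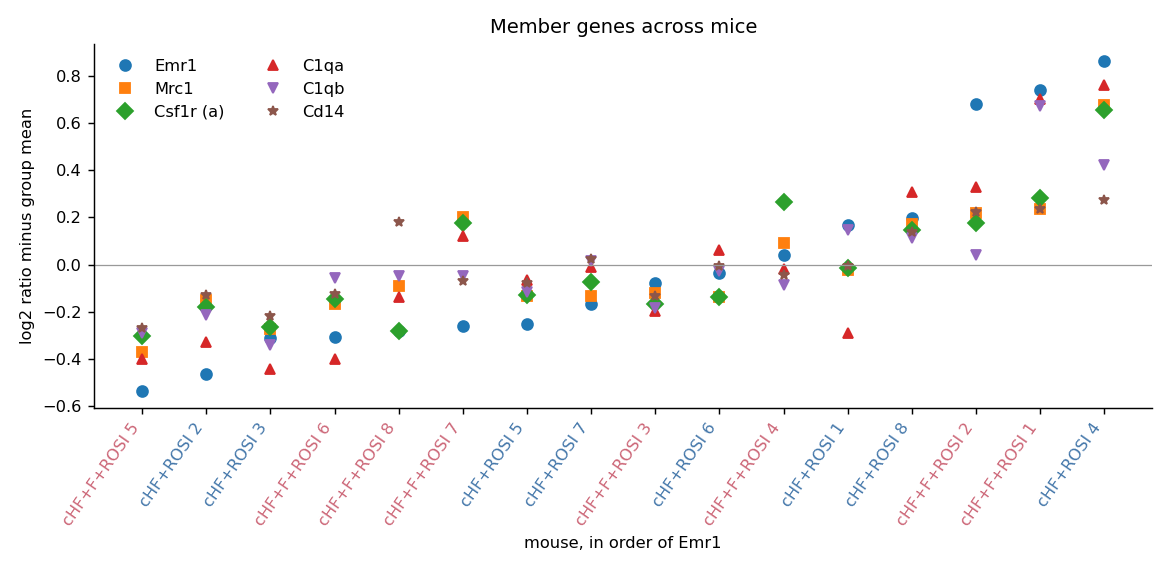
Log2 ratio minus the group mean (y axis) of Emr1, Mrc1, Csf1r (a), C1qa, C1qb and Cd14 in the 16 mice, placed in order of Emr1 (x axis, cHF+ROSI labels in blue and cHF+F+ROSI labels in red). The symbols climb together, with cHF+ROSI 4 and cHF+F+ROSI 1 at the high end and cHF+F+ROSI 5 at the low end, and with single departures such as C1qa in cHF+ROSI 1.

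Among 13492 other genes compared, those most like the mean of C1qa and C1qb were, with their r, Fcer1g (0.93), Ly86 (0.92), Cfp (0.92), Lyzs (0.92), Sema4a (0.91), C1qc (0.91), Ptprc (0.91), Fcgr1 (0.90), Ptpn6 (0.90) and a probe named Lyz (0.90). Fcer1g and Fcgr1 are chains of Fc receptors, Lyzs (Lyz2) is the lysozyme of phagocytes, Cfp is properdin of the alternative complement pathway, and Ptprc is the leukocyte antigen CD45. Most like the mean of the 9 other measured member probes were C1qc (0.90), Lilrb3 (0.86), Arpc1b (0.85), Sept5 (0.85), Pelo (0.84), Csf2ra (0.83), Rhoc (0.83), Gmfg (0.82), Emp3 (0.81) and Alox5 (0.81). When Grn (b) was left out of that mean, an addition made after its values were seen, the leading genes were Lyzs (0.93), C1qc (0.92), Alox5 (0.91), Lilrb3 (0.90) and Cfp (0.90). These are the highest of many r over 16 mice and a description only.

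Of 41 other genes of macrophages and monocytes, 28 were measured, and 1 of them rose and 0 fell at an unadjusted p of up to 0.05, a share of 3.57% beside 10.4% of all probes, with a median log2 fold change of 0.08. The one was Gas6, a ligand of the receptors that take up dying cells, at 0.23 (SE 0.08, limma adjusted p = 0.351), and Gas6 had an r of 0.01 with Emr1. Among the brightest besides Gas6 were Lyz2 (-0.05) and Lgmn (-0.06). Across the mice, 22 of the 28 had r of at least 0.5 with Emr1, while 5.84% of all probes did, and 22 had so with C1qa, beside 5.08%. Lyz2 (0.94), C1qc (0.91) and Fcer1g (0.91) were closest to Emr1, and Trem2, Lgmn, Gpnmb, Gas6 and Mertk were among the 6 below 0.5.

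Of 34 complement genes, 23 were measured, and 3 rose and 1 fell at an unadjusted p of up to 0.05 (17.4%, beside 10.4% of all probes), with 0 past the adjustment and a median log2 fold change of 0.04. Higher in the cHF+F+ROSI mice were Cd55, which protects cells from complement, at 0.36 (SE 0.08, limma adjusted p = 0.0857), C3, the central component, at 0.36 (SE 0.15, adjusted p = 0.416), and C1qbp, a mitochondrial protein named for binding C1q, at 0.12 (SE 0.06, adjusted p = 0.48). Lower was Cd93, a receptor of endothelial and myeloid cells, at -0.33 (SE 0.14, adjusted p = 0.424). Of the 4 brightest, which include C1qbp and C3, Cfd (adipsin) had 0.48 with an SE of 0.40 and Cd59a, another protector of cells, 0.03. With Emr1, 10 of the 23 had an r of at least 0.5, led by C1qc, Cfp, C4b (0.77) and C1r (0.73), while Cd55 had -0.02.

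The lists of macrophage and complement genes together held 50 measured genes, of which 5 (10.0%, beside 10.4% of all probes) passed an unadjusted p of 0.05. Ligands, co-receptors and partners of the members numbered 23 measured of 26, with 2 higher and 2 lower (17.4%, beside the same 10.4%), at adjusted p of at least 0.381 from limma. Higher were Sort1, the receptor that takes up progranulin, at 0.30 (SE 0.12), and Ctsb, the lysosomal protease cathepsin B, at 0.12 (SE 0.06). Lower were Lbp, which hands lipopolysaccharide to CD14, at -0.19 (SE 0.07), and Myd88, the adaptor of Toll-like receptors, at -0.10 (SE 0.04). Csf1, the ligand of Csf1r, had 0.03, with r = 0.71 to Emr1. Of 28 genes of inflammatory and alternative activation 13 were measured, and 1 was lower at an unadjusted p of up to 0.05 (7.69%, beside the same 10.4%). It was Retnla, a marker of alternative activation, at -0.36 (SE 0.15, limma adjusted p = 0.424). Tnf, Il1b, Il6, Nos2, Arg1 and Il10 did not pass the background filter.

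Markers of other cells were set against Emr1 and C1qa to see which of them moved with these genes from mouse to mouse, in 30 relations of the mean of a list with a gene. The macrophage and monocyte list had r = 0.95 with Emr1 (rho = 0.89, adjusted permutation p = 0.0003 and 0.0009) and 0.90 with C1qa (rho = 0.82, adjusted permutation p = 0.00105 and 0.00585). The MHC class II genes, which present antigen, had r = 0.65 with Emr1 (rho = 0.67, adjusted permutation p = 0.0032 and 0.0277; 0.54 without the 2 farthest mice), and their list mean was 1.16 in cHF+F+ROSI replicate 1, with at most 0.01 in any other mouse. The 4 measured T cell markers had r = 0.73 with Emr1 (rho = 0.59, adjusted permutation p = 0.0154 and 0.0743; 0.72 without the 2 farthest mice) and the 4 mast cell markers r = 0.64 (rho = 0.56, adjusted permutation p = 0.0345 and 0.0899; 0.85 without the 2 farthest mice). The inflammatory and alternative activation list had r = 0.81 with Emr1 (rho = 0.61, adjusted permutation p = 0.0084 and 0.0646), the complement list r = 0.66 (rho = 0.74, adjusted permutation p = 0.0325 and 0.0197), and the list of partners and ligands r = 0.63 (rho = 0.54, adjusted permutation p = 0.0274 and 0.0899). The T cell mean was carried by Thy1 (0.73) and Cd3e (0.59), while Cd4 had 0.04 and Cd8b1 -0.07. Of the 13 inflammatory and alternative activation genes, 5 had an r of at least 0.5 with Emr1 (median 0.44), and Nfkbia, Cd36 and Pparg lay below 0. Of the 23 partners and ligands 8 reached 0.5 (median 0.29), and r ran from -0.54 for Lamp1 to 0.85 for Csf2ra.

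With C1qa the relations were 0.65 for MHC class II (adjusted permutation p = 0.0134; 0.40 without the 2 farthest mice), 0.68 for T cell markers (adjusted permutation p = 0.0187) and 0.61 for the inflammatory and alternative activation list (adjusted permutation p = 0.0394; 0.31 without the 2 farthest mice). The relations of C1qa with the complement list (0.57, adjusted permutation p = 0.0631), the mast cell markers (0.50, adjusted permutation p = 0.122) and the partners and ligands (0.38, adjusted permutation p = 0.331) did not pass, and by rho the macrophage list alone passed with C1qa. Whether Emr1 and C1qa differed in these relations was not tested.

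Relations of Emr1 with the other tissue lists did not pass. They were 0.35 for the 9 fibroblast markers (adjusted permutation p = 0.331; rho = 0.34), -0.01 for the 8 endothelial markers (adjusted permutation p = 0.992; rho = 0.11), -0.17 for the 8 adipocyte markers (adjusted permutation p = 0.674; rho = -0.11), -0.36 for the slow fibre genes (adjusted permutation p = 0.331; rho = -0.23), -0.34 for the fast fibre genes (adjusted permutation p = 0.331; rho = -0.31), -0.16 for the red blood cell markers (adjusted permutation p = 0.708; rho = -0.17) and -0.12 for the 2 measured neutrophil markers (adjusted permutation p = 0.749; rho = -0.05), and the 1 measured B cell marker, Blnk, had 0.00. C1qa passed with none of these lists either. With slide means also removed, the fibroblast relation was 0.59 for Emr1 and 0.68 for C1qa, and without the 2 farthest mice Emr1 had 0.30 with the adipocyte, -0.56 with the slow fibre and -0.53 with the fast fibre list, values for which no test was run. By diet, 6 of the 8 endothelial markers had lower means in cHF+F+ROSI mice with an unadjusted p no higher than 0.05, 75.0% beside 4.99% of all probes (Pecam1 -0.14, Cdh5 -0.19, Kdr -0.28, Tek -0.10, Emcn -0.24 and Eng -0.31), with 0 past the adjustment. At the same unadjusted limit, the fibroblast list had 1 lower gene of 9 (Pi16, -0.63, limma adjusted p = 0.387), a share of 11.1%. The slow fibre list had 1 lower of 9 (Csrp3, -0.93, limma adjusted p = 0.211), also 11.1%. The fast fibre list had 1 higher of 10 (Mylpf, 0.17, limma adjusted p = 0.482), 10.0%. Each share lay near the 10.4% of all probes. The MHC class II, T cell, B cell, neutrophil, mast cell, red blood cell and adipocyte lists had 0. Their part in the results on the members was not tested.

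**Figure D5:**
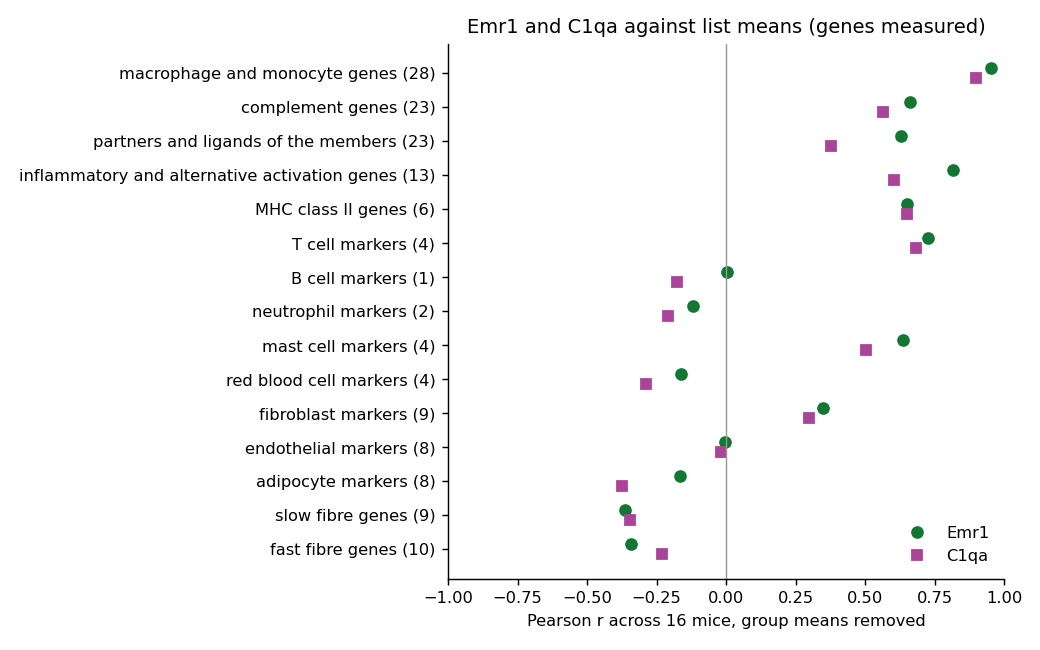
Pearson r across 16 mice, group means removed (x axis), of Emr1 (circles) and C1qa (squares) with the mean of each gene list (y axis, number of measured genes in brackets). Both genes lie to the right for the macrophage, MHC class II, T cell and mast cell lists. For the endothelial, adipocyte, fibre and red blood cell lists they lie near or left of 0. The fibroblast list lies between these, at 0.35 for Emr1 and 0.30 for C1qa.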

How the data were processed

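The authors deposited spot intensities of 16 arrays, quantified by Agilent Feature Extraction (version 10.5.1.1 in the file headers, 10.5.5.1 in the submitters' processing notes) from scans at 2 laser powers, and a table of normalized log2 values, made from median signals without weak spots and normalized against Cy3. The reference pool also held samples not analysed here, and no dyes were swapped. Array positions are those of the mm8 build in the files.

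Median signals were corrected by normexp with an offset of 50, and control spots and outlier flags were left out. Spots darker than their own local background (79 over all arrays, at most 22 on 1, 23 of them on kept spots) were left out too, since the normexp fit on all spots collapsed on 3 arrays because of them, where the interquartile range of log2 ratios was 0.0556, 0.117 and 0.156 instead of 0.325, 0.421 and 0.45. This was decided after seeing the data. A spot was kept where its signal, averaged over arrays, was 2 or more times the background in Cy5 and in Cy3 (20703 of 43379 spots, 19398 probes). The log2 ratio of Cy5 to Cy3 then underwent loess in each array, replicate spots were averaged per probe, and the diets were set against each other in limma (lmFit, eBayes; version 3.58.1, under R 4.3.3). Adjusted p-values follow Benjamini and Hochberg over all 19398 probes. The offset makes fold changes of weak probes smaller. Single probes were also compared by exact permutation (12870 regroupings), and pairs by 100000 draws within groups. The chain was tested on simulated data. No arrays were identical. The number of arrays limits precision, and since mice were caged in pairs that the labels do not name, cage could not be a term, and p-values measure only the spread between these mice.

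The members and lists were chosen with earlier results of these data known. The rule for naming took every member probe, the list genes with an unadjusted p of up to 0.05 and the 4 brightest in Cy5 of each list (1 probe per gene, the brightest; given for the macrophage and complement lists), and the 10 genes most like the mean of C1qa and C1qb and that of the other measured members. Other list genes were named after their values were seen. The values of 1 list gene are not reported here. Alternatives covered background, normalization, the Cy5 channel alone, the authors' table, filters, blocks, weights, the methods' t-test and each array left out.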

Additional observations from a re-analysis of the deposited data

Results flagged for a closer look

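In 52 groups of 8 mice (the 11 member probes and the 15 list means in each diet), 10 highest or lowest values lay farther from the next than Dixon's test at 95% allows, where chance gives 1 in 20 groups, or about 2.6. The groups are not independent, since members varied together and the same mouse can be flagged in several of them. The 10 values are thus not 10 separate departures. In cHF+ROSI replicate 4 Mrc1 was 0.78, with the next mouse at 0.28, and Csf1r (a) was 0.44, with the next at -0.07. In cHF+F+ROSI replicate 1 C1qb was 0.10, with the next at -0.54. Grn (b) was -1.03 in cHF+ROSI replicate 1, with the next at -2.41, and -4.12 in cHF+F+ROSI replicate 2, with the next at -3.50. Among the list means, complement genes were 0.26 in cHF+ROSI replicate 8 (next 0.04), MHC class II genes 1.16 in cHF+F+ROSI replicate 1 (next -0.11), mast cell markers 0.69 and slow fibre genes -2.16 in cHF+F+ROSI replicate 2 (next 0.13 and -0.66), and red blood cell markers 0.94 in cHF+F+ROSI replicate 6 (next -0.06).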

How the results depend on the processing

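In every alternative run, 0 member probes passed an adjusted p of 0.05 in limma. The number of member probes at an unadjusted p of up to 0.05, 1 as reported, was 0 with scale normalization, with Cy5 alone, with array quality weights and by the methods' t-test, and 0 to 2 when 1 mouse was left out. The number with an exact permutation p of up to 0.05 was 0 with median centring, scale normalization, Cy5 alone and the authors' table, and 0 to 2 when 1 mouse was left out. The number of macrophage and complement genes, 5, was 3 with Cy5 alone and with the authors' table, and 2 to 6 without 1 mouse. The median log2 fold change of the member probes lay between -0.08 and 0.02 without 1 mouse. The median r of member pairs lay between 0.42 and 0.63 without 1 mouse, and was 0.36 without the 3 mice highest in Emr1, an alternative chosen after seeing the data. Small differences turned sign. With Cy5 alone, C1qb was 0.0301, Cd14 0.0239, Cd68 0.0166 and C1qa -0.00109. With scale normalization C1qb was 0.0234, and with array quality weights Emr1 was -0.0572. With 1 mouse left out, Emr1 lay between -0.0767 and 0.153, below 0 without cHF+ROSI replicate 2, 3 or 5 or cHF+F+ROSI replicate 1 or 2. C1qa lay between -0.0158 and 0.194, below 0 without cHF+F+ROSI replicate 1. C1qb lay between -0.133 and 0.0233, Cd14 between -0.0574 and 0.0158, Cd68 between -0.0746 and 0.0153 and Csf1r (a) between -0.10 and 0.0333, above 0 without cHF+ROSI replicate 4 and, for C1qb and Cd14, also without cHF+F+ROSI replicate 5. The cause was not tested. No pairing by replicate number was seen. Same-numbered mice had correlations between -0.26 and 0.34, and 0 of 8 cHF+ROSI mice correlated best with their own number. Such correlations cannot exclude a pairing by cage or handling. With the replicate block, the counts of member probes at these limits were 1 and 0. Over all probes, 17 passed the adjustment, beside 6 with the block, 3 with normexp fitted on all spots, 7 by the methods' t-test and 144 with array quality weights. Signals near background limit Cd68, Cd14 and Csf1r (b), and Itgam gave no value.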
